A study of Mus musculus with 474 samples.

Results

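Mouse haematopoietic stem cell (HSC) divisions with a high level of Aldh1a1 in their daughters were compared with divisions with a low level. Their members were chosen by the readout itself, the Aldh1a1 level. Within each of 9 culture experiments, divisions were ranked by the mean of log2(Aldh1a1 CPM + 1) over both daughters (CPM, counts scaled to 1e+06 counts on genes per cell or sum). The 3 groups are the lowest, the middle and the highest part of that ranking in each experiment, with the number of divisions divided by 3 and rounded down in the highest and the lowest part. There are 64 Aldh1a1-high divisions (31.5% of the divisions with both daughters sequenced) and 64 Aldh1a1-low divisions (31.5%), and their cells make up 54.01% of all cells listed. The other 75 divisions (150 cells) form the middle group, and 68 cells had no sequenced sister. Both groups are of the same kind per the labels: wild-type HSCs from marrow of C57BL/6JRj mice that were male and 12 to 19 weeks old, with no treatment named. Each HSC was filmed through its first division in culture. The daughters were picked with a micromanipulator, labelled as having received more or fewer lysosomes than the sister, and sequenced singly with Smart-Seq2, a full-length plate method. Every division has 1 daughter of each lysosome label, so the label is balanced between the groups. The number of mice behind a culture is not given in the sources used here, so p-values over experiments measure the spread between cultures. P-values over divisions also treat divisions of 1 culture as replicates.

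Aldh1a1 encodes a cytosolic aldehyde dehydrogenase that oxidises retinaldehyde to retinoic acid, the ligand of nuclear retinoic acid receptors, and that detoxifies reactive aldehydes. Activity of this enzyme family, read with a fluorescent substrate, is widely used to enrich blood stem cells. HSCs differ among themselves in lineage bias, and a subset that expresses platelet genes such as Vwf stands close to the megakaryocyte lineage. The gene ENSMUSG00000053279 lies on the plus strand of chromosome 19 from 20492715 to 20643465 in GRCm38.

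The RefSeq promoter table for GRCm38.p6 gives 2 start sites for Aldh1a1, and which of them these cells use was not measured. The windows shown are the 250 bases before a start, 5′ to 3′ on the gene's strand, for both Aldh1a1 starts and for 4 of the genes described below. For Exoc3l4 only the first listed start is shown. The second Aldh1a1 window, the Rnf220 and Exoc3l4 windows and most of the Itga2b window lie inside the annotated genes. Which start these cells use was not measured for the 4 other genes either. Capitals mark the motif GATAA of GATA factors or AGGAAG of ETS factors, or on the other strand TTATC and CTTCCT. No base belongs to both motifs.
Aldh1a1 window 1, chr19:20492333-20492582, plus strand: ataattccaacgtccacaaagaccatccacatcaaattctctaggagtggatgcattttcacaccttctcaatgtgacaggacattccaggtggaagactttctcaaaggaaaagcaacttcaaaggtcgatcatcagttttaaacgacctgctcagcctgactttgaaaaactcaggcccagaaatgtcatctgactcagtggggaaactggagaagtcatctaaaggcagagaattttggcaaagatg
Aldh1a1 window 2, chr19:20601718-20601967, plus strand: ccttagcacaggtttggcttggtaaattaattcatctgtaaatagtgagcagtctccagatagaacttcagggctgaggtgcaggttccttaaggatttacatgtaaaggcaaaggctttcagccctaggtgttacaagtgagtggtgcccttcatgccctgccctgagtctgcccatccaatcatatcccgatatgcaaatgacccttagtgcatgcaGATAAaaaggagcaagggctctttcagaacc
Itga2b, chr11:102469884-102470133, minus strand: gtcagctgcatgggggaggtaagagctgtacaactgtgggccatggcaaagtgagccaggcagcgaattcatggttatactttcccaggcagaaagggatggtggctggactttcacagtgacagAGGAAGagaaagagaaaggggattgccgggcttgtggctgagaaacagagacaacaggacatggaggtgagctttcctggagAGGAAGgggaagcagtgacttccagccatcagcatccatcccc
Gp9, chr6:87777820-87778069, plus strand: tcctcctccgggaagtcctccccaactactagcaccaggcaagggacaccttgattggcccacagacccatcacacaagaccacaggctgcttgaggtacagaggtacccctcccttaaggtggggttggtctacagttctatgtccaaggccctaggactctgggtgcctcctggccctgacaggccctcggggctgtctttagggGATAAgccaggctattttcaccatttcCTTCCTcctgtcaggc
Exoc3l4, chr12:111417180-111417429, plus strand: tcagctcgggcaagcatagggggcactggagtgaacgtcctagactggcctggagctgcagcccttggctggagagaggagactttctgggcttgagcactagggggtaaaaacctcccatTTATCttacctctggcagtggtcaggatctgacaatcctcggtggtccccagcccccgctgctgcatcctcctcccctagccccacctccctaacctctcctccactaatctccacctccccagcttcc
Rnf220, chr4:117375462-117375711, minus strand: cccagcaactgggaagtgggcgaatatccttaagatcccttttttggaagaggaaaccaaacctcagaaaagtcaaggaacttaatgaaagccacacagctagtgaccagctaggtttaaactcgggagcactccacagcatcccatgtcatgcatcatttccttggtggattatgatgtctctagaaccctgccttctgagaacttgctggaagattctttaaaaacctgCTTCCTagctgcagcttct
The second Aldh1a1 window holds a GATAA that begins 31 bases before the start, and the first holds neither motif. Over all 32851 windows of the table, 22.6% hold GATAA and 29.5% hold AGGAAG on either strand. A match is a description of these letters only.

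Aldh1a1 had a count in 100% of cells of Aldh1a1-high divisions and in 77 cells (60.2%) of Aldh1a1-low divisions. Single cells of Aldh1a1-high divisions had from 48.3 to 802 CPM with a median of 261.4 CPM, and those of Aldh1a1-low divisions had from 0 to 278.2 CPM with a median of 6.86 CPM. In counts summed per experiment, the lowest, median and highest levels were 0.155, 30.97 and 78.05 CPM in Aldh1a1-low divisions, 41.95, 105.4 and 184.9 CPM in middle divisions, and 181.5, 339.5 and 395.999 CPM in Aldh1a1-high divisions. The high and low sums do not overlap, which the choice of the groups fixes, so these levels are a description without a test. The edges of the groups were close in most cultures. In experiment 77 the lowest Aldh1a1-high division had a mean of 7.98 and the highest middle division 7.97 on the log2(CPM + 1) scale, and the lowest middle and the highest Aldh1a1-low division both had 6.83. In experiment 60 the same edges stood at 6.00 against 5.82 and at 2.89 against 0.71. The groups are therefore relative to their own culture: an Aldh1a1-low division of experiment 77 can exceed an Aldh1a1-high division of experiment 60.

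**Figure D1:**
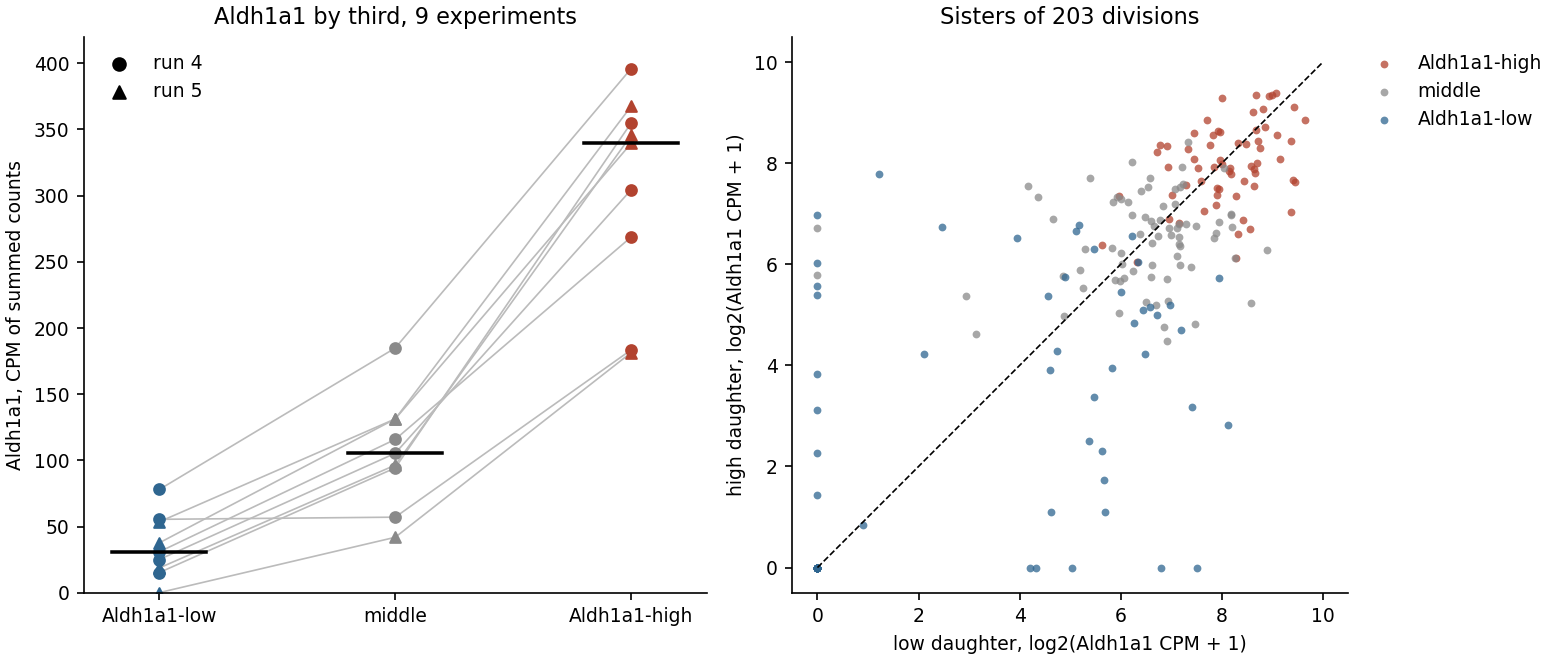
Aldh1a1 in each group of divisions. Left, CPM of counts summed over the divisions of a group in each of 9 experiments, with lines joining an experiment and bars at the medians (30.97, 105.4 and 339.5 CPM, low to high); right, log2(CPM + 1) in both daughters of each division, with the dashed line at equal levels and 19 divisions at 0 in both daughters.

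Sisters shared their Aldh1a1 level closely. The intraclass correlation between sisters (the share of the variance that lies between divisions), centred on experiment and plate, was 0.702 for Aldh1a1, higher than in 99.5% of 11699 genes, whose median was 0.0605. Spearman's correlation of the sisters was 0.706 over all divisions. Both daughters were at 0 in 19 divisions. The median absolute difference between sisters was 0.63 in Aldh1a1-high, 0.94 in middle and 1.49 in Aldh1a1-low divisions on the log2(CPM + 1) scale. Ranked by the daughter with fewer lysosomes alone, the other daughter had a median of 236.6 CPM Aldh1a1 in top divisions and 16.02 CPM in bottom divisions. Ranked the other way, these medians were 243.3 CPM and 24.6 CPM. In both rankings the sister, whose level the ranking did not use, had a higher median in top divisions.

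Between sisters, the Aldh1a1 level differed by lysosome label less than the experiments differed from each other. Daughters with more lysosomes averaged 5.79 and daughters with fewer averaged 5.86 on the log2(CPM + 1) scale, a difference of -0.07 ± 0.51 (SD, n = 9 experiments, higher in 3 of 9, exact two-sided sign-flip permutation test p = 0.637). The difference was -0.27 within sequencing run 4 and 0.17 within run 5.

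HSC markers were counted in both groups, some of them not in every cell. Mecom and Kit had a count in 100% of cells of both groups, and Hlf in 99.2% of cells of Aldh1a1-high and 100% of cells of Aldh1a1-low divisions. Ly6a and Mllt3 were counted in nearly all cells. Procr was counted in 78.1% and 84.4% and Slamf1 in 37.5% and 18.0% of cells, in the same order. Fgd5 was also missing from some cells of both groups. A count does not give the level. In 1 Aldh1a1-low division of experiment 69 the daughters had 128.8 and 35.3 CPM Mecom, against a median of 1271.75 CPM over paired cells. Markers of lymphoid, mast, macrophage and stromal cells summed to medians under 5 CPM in both groups, and Mpo, Ctsg, Cd3e, Rag1, Prss34 and C1qa were at 0 throughout. Other markers were present. The 6 myeloid markers summed to medians of 30.5 CPM in Aldh1a1-high and 43.4 CPM in Aldh1a1-low divisions, with Prtn3 counted in 74.2% and 68.8% and Csf3r in 37.5% and 54.7% of cells. The 6 erythroid markers summed to 546.6 CPM and 562.6 CPM, and Car2, a carbonic anhydrase gene on that list, had a count in every cell of both groups. Total counts per cell had a median of 852439 in Aldh1a1-high and 826843 in Aldh1a1-low divisions, and the difference in log2 totals was -0.01 ± 0.17 (SD over 9 experiments, exact sign-flip test p = 0.914). Cells of Aldh1a1-high divisions had more detected genes, 9900 against 9535, a difference of 364.9 ± 346.9 (SD, n = 9, higher in 9 of 9, exact sign-flip p = 0.0039, the smallest possible, and 0.0156 adjusted over 4 library measures). Counts per spike-in count, a measure of RNA per cell, were higher by 0.33 ± 0.35 on the log2 scale (higher in 7 of 9, exact sign-flip p = 0.0313, adjusted 0.0625). The mitochondrial share was 1.79% and 1.97% (difference -0.17 ± 0.44 percentage points, exact sign-flip p = 0.293). The part of detected genes and of RNA per cell in the gene results was not tested, beyond the fits with depth as a covariate.

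Experiment 69 stands apart. It has 4 divisions in each group, and its Aldh1a1-low sum holds 434.98 CPM Itga2b, against 150.9 CPM in its Aldh1a1-high sum. In 1 of its Aldh1a1-low divisions the daughters had 1274 and 1087 CPM Itga2b, 81.3 and 83.4 CPM Gp9, 224.8 and 22.4 CPM of the erythroid and megakaryocyte factor Gata1, and 15.8 and 9.62 CPM of the HSC factor Hlf, in the daughter with more and the daughter with fewer lysosomes. The value of 1274 CPM is the highest Itga2b level of all paired cells, whose median was 5.92 CPM. Aldh1a1 in this division was 1.13 and 23.5 CPM, so the division with the highest Itga2b level sits among the Aldh1a1-low ones. Without experiment 69, edgeR called 0 genes on sums and 25 over divisions in the comparisons that follow.

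Across the transcriptome few genes separated the groups. By p on sums, the high side was led by the platelet integrin gene Itgb3, followed by Phlda2, Plek2, Exoc3l4 and Tnfaip2, and the low side by Rnf220 and 2610307P16Rik. On counts summed per experiment, 0 of 12049 genes (0.0%) passed an adjusted p of 0.05 with edgeR's quasi-likelihood test and experiment as block. At an unadjusted p under 0.05 there were 653 genes (5.42%), of which 2.94% of all genes were higher and 2.48% lower. DESeq2 on the same sums called 59 (0.49%), with 39 higher (0.324%) and 20 lower (0.166%). The 24 genes with the smallest edgeR p, 12 higher and 12 lower, were all among them. With divisions kept apart, edgeR called 28 of 13237 genes (0.212%), of which 19 were higher (0.144%) and 9 lower (0.068%) in Aldh1a1-high divisions. No gene among the 28 passed on sums in edgeR, and some were not tested there. A slope on the Aldh1a1 level over all divisions called 44 of 13275 genes (0.331%), 32 higher (0.241%) and 12 lower (0.0904%), with 16 of the 28 among them. No gene had 9 high sums that do not overlap the 9 low sums (0.0%), and 53 genes (0.44%) were higher and 28 (0.232%) lower in 9 of 9 experiments. In sums over several cells, fewer cells that express a gene and less RNA per cell cannot be told apart. Rnf220, Tnfaip2, Satb1, Cd9, Flt3 and Nr3c2 overlap a gene on the opposite strand, and whether counting used strand is not given in the sources used here, so reads of the partners cannot be told apart.

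**Figure D2:**
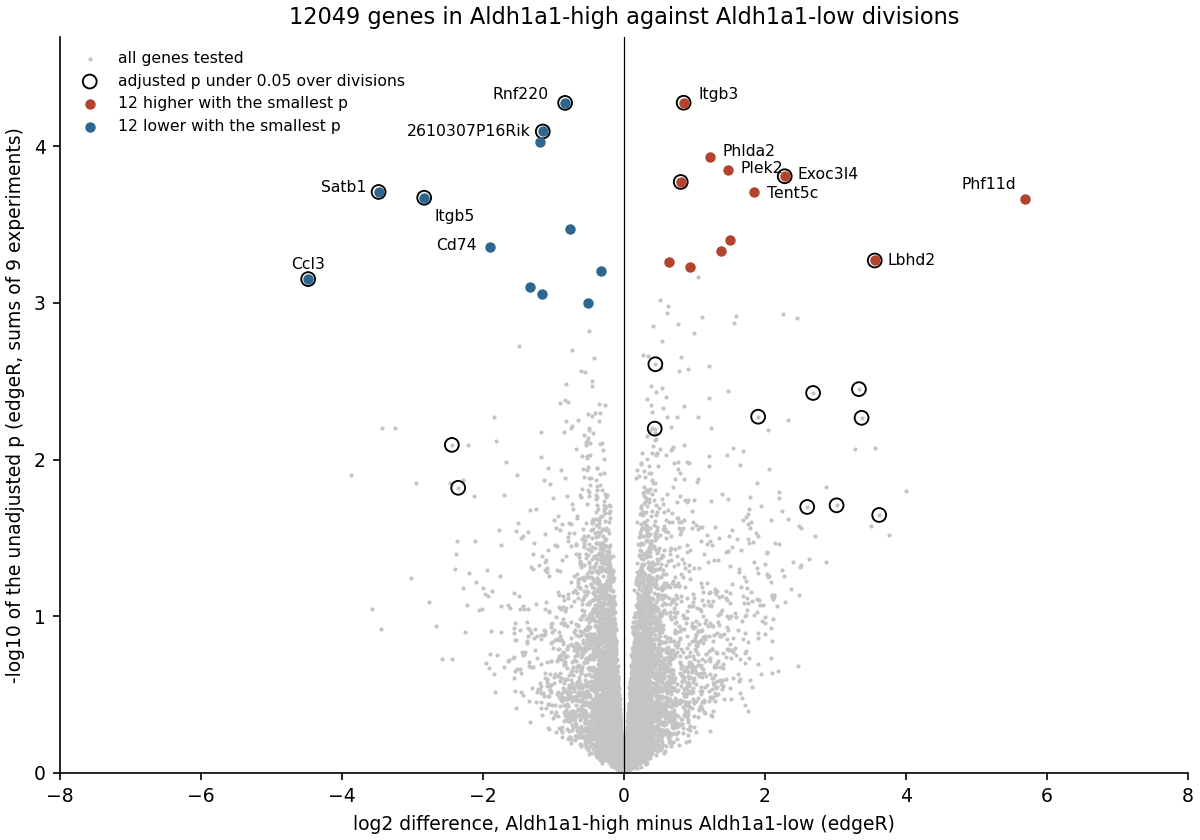
Difference and p of 12049 genes in counts summed per experiment. The x axis is the log2 difference of Aldh1a1-high minus Aldh1a1-low divisions and the y axis -log10 of the unadjusted edgeR p; filled points are the 12 higher and 12 lower genes with the smallest p, and rings are genes called with divisions kept apart that were also tested on sums.

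Most tested genes of megakaryocytes and platelets were higher in Aldh1a1-high divisions. Of 26 listed genes, 24 had a count and 19 were tested; 15 of the 19 were higher, with a median log2 difference of 0.45 against 0.01 over all 12049 genes tested. The unadjusted p was under 0.05 for 8 of them (42.1%), all higher, against 5.42% of all genes tested. Those 8 include Clu, described with other genes below, and Vwf, which is also on the HSC list. Adjusted edgeR calls were 4 of 19 with divisions kept apart and 6 of 19 on the slope, none of them lower. The shares over all genes in these fits were 0.212% and 0.331%. The medians were 0.50 within run 4 and 0.46 within run 5, and without experiment 69 the median was 0.53 with 15 of 19 higher. With RLE size factors in place of TMM, every list had the same number of higher genes. The lists were written with earlier results of these data known, so the counts describe and do not test them.

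Itgb3 (ENSMUSG00000020689, chromosome 11, 104608000 to 104670476) encodes integrin beta 3, the partner of the integrin encoded by Itga2b in the platelet fibrinogen receptor. Its lowest, median and highest levels over experiments were 175.3, 185.3 and 310.8 CPM in Aldh1a1-high and 66.8, 106.7 and 205.2 CPM in Aldh1a1-low divisions. The ranges overlap, and the high sum exceeded the low sum in 8 of 9 experiments, with experiment 68 level at 177.3 and 178.6 CPM. The log2 difference was 0.85 ± 0.14 (SE) on sums, with an unadjusted p of 5.27e-05 and an adjusted p of 0.218. Over divisions it was 0.81 ± 0.15 with an edgeR adjusted p of 0.000533.

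Itga2b (ENSMUSG00000034664, chromosome 11, 102453297 to 102470122), which encodes CD41, had 25.6, 61.8 and 150.9 CPM in Aldh1a1-high and 0.15, 11.1 and 434.98 CPM in Aldh1a1-low divisions. It was higher in 8 of 9 experiments, and experiment 69 is the exception described above. A count was present in 58 of 64 Aldh1a1-high and 45 of 64 Aldh1a1-low divisions, and cells with one made up 74.2% and 49.2%. The log2 difference was 1.90 ± 0.57 on sums and 1.86 ± 0.43 over divisions (edgeR adjusted p = 0.0145). That call was lost without experiment 73, 74, 76 or 77, with adjusted p between 0.0506 and 0.0781, and with depth and detected genes as covariates, where the adjusted p was 0.0637.

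Gp9, which encodes a subunit of the platelet receptor for von Willebrand factor, had 10.3, 19.4 and 43.7 CPM in Aldh1a1-high and 2.48, 5.56 and 33.2 CPM in Aldh1a1-low divisions. The ranges overlap, the highest low sum belongs to experiment 69, and 64.1% against 39.1% of cells held a count. The log2 difference was 1.57 ± 0.39, and the slope over all divisions passed (edgeR adjusted p = 0.0219). Gp9 passed neither on sums (adjusted p = 0.486) nor with divisions kept apart (adjusted p = 0.125) in edgeR. On sums it was called by DESeq2 (adjusted p = 0.0053). F2r, which encodes the thrombin receptor PAR1, had 214.1, 368.3 and 475 CPM against 123.9, 241.9 and 578 CPM, with ranges that overlap. It was higher by 0.56 ± 0.13 over divisions (edgeR adjusted p = 0.0145), a call lost without experiment 73, 75, 76 or 77. Cd9, a tetraspanin of platelets and HSCs, had 217.03, 320 and 373.3 CPM against 158.9, 212.4 and 377.99 CPM. It rose by 0.56 ± 0.11 over divisions (edgeR adjusted p = 0.00145), and the adjusted p was 0.0592 without experiment 76. Mmrn1 and Rab27b, genes of platelet granules, had log2 differences of 0.53 ± 0.14 and 0.55 ± 0.15 on sums and passed on the slope (edgeR adjusted p = 0.0149 and 0.0357) but not over divisions (0.0729 and 0.125).

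Not all platelet genes went this way. Pf4, which encodes platelet factor 4, had a log2 difference of -0.02 ± 0.35 and a count in 69.5% of cells of both groups. Vwf, which encodes von Willebrand factor, had 27.4, 104.05 and 242.4 CPM in Aldh1a1-high and 14.6, 19.6 and 232.7 CPM in Aldh1a1-low divisions, a log2 difference of 1.47 ± 0.55. The difference was 2.85 within run 4, where every experiment was higher, and -0.36 within run 5. Vwf passed neither over divisions (edgeR adjusted p = 0.0729) nor on sums. Of 6 megakaryocyte markers the summed level ran from 126.4 to 316.6 CPM with a median of 198.5 CPM in Aldh1a1-high divisions, and from 51.7 to 550 CPM with a median of 66.4 CPM in Aldh1a1-low divisions.

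**Figure D3:**
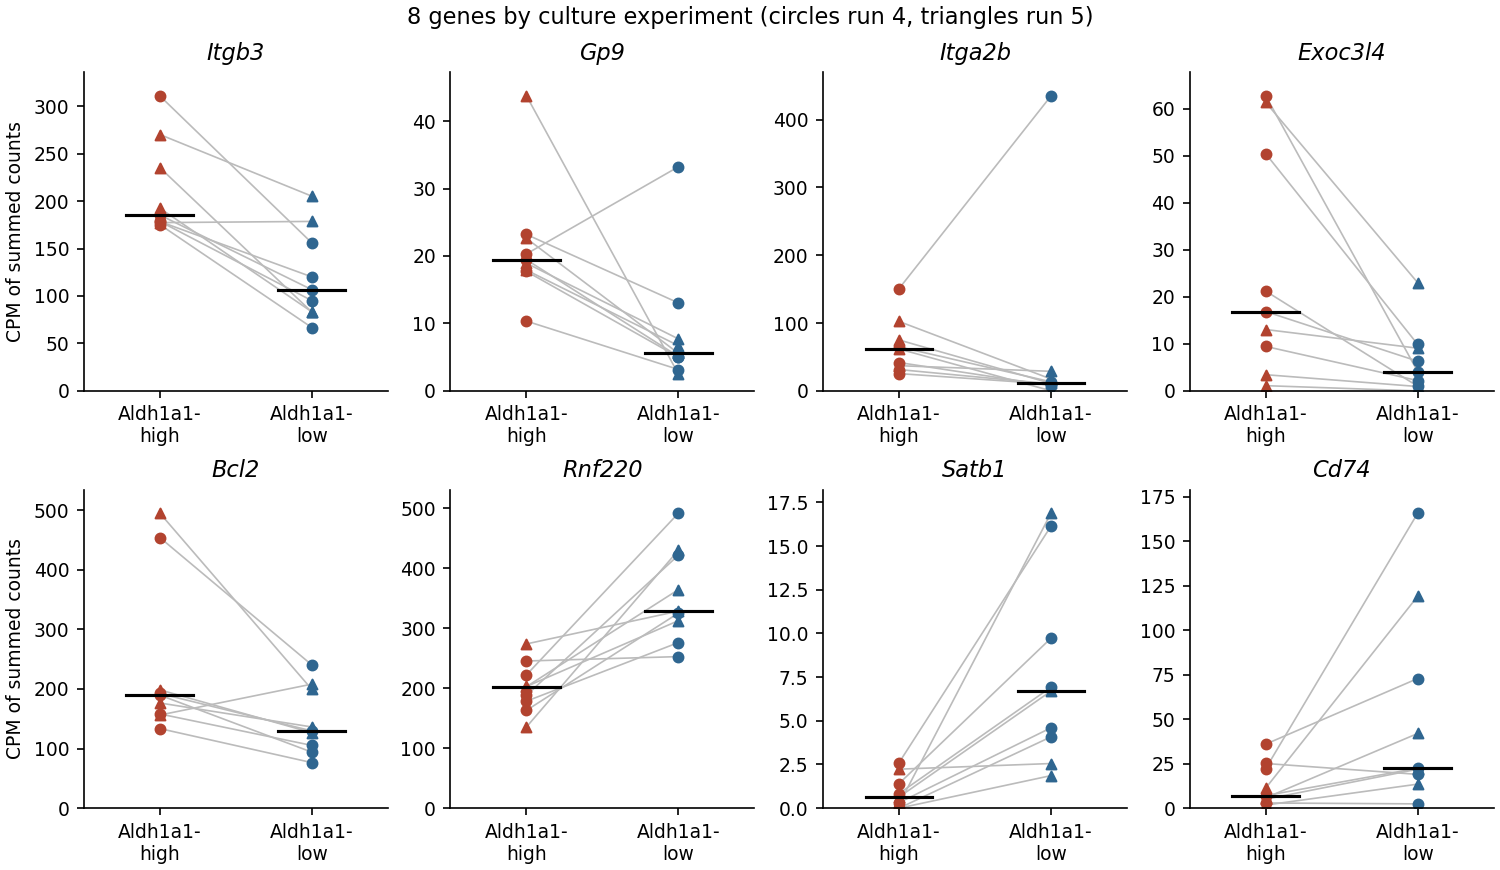
CPM of summed counts of 8 genes in Aldh1a1-high (left) and Aldh1a1-low (right) divisions of each of 9 experiments. Lines join an experiment, bars are medians, circles are run 4 and triangles run 5; the line that climbs in Itga2b is experiment 69 (150.9 and 434.98 CPM).

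A second feature was positional. Exoc3l4, Tnfaip2 and Lbhd2 lie next to each other on the plus strand of chromosome 12 between 111406809 and 111455018, and all 3 were higher with divisions kept apart. On sums, with the culture as replicate, none of the 3 passed in edgeR (unadjusted p = 0.000155, 0.000169 and 0.000535). DESeq2 called all 3 on the same sums. Exoc3l4, a relative of the exocyst subunit Exoc3, had 1.12, 16.9 and 62.7 CPM in Aldh1a1-high and 0, 4.09 and 22.99 CPM in Aldh1a1-low divisions, and was higher in 9 of 9 experiments. It had a count in 59 of 64 against 36 of 64 divisions and rose by 2.47 ± 0.41 over divisions (edgeR adjusted p = 9.87e-05). Tnfaip2, induced by tumour necrosis factor and involved in membrane protrusions, had 63.3, 103.996 and 211.5 CPM against 45.8, 60.1 and 208.6 CPM, higher in 9 of 9 experiments. It rose by 0.90 ± 0.19 over divisions (edgeR adjusted p = 0.00373), with an adjusted p of 0.0845 without experiment 76. Lbhd2 was sparse, with a count in 20 of 64 against 6 of 64 divisions, and rose by 2.95 ± 0.50 (edgeR adjusted p = 0.00014). In Aldh1a1-low divisions alone its share lay under the 20% needed for the test. It was tested through its Aldh1a1-high divisions, which favours a call as higher. It did not reach the share of divisions needed for the test without experiment 60, 68 or 77.

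The nearest tested neighbours outside these 3 genes did not pass. Cdc42bpb upstream had a log2 difference of 0.45 ± 0.27 and Eif5 downstream -0.00 ± 0.09 on sums. Across all cells, the Spearman correlation was 0.488 between Exoc3l4 and Tnfaip2, 0.286 between Exoc3l4 and Lbhd2, and 0.232 between Lbhd2 and Tnfaip2. Cells share depth and library, so these correlations are descriptions. The antisense gene Gm10425, which lies within Exoc3l4, had no count in any cell.

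Other genes that led the high side belong to several functions. Fgf3, a fibroblast growth factor gene, had 0, 31.6 and 100.04 CPM in Aldh1a1-high and 0, 0.778 and 230.8 CPM in Aldh1a1-low divisions, where the highest value is again experiment 69. It had a count in 33 of 64 against 15 of 64 divisions and rose by 3.45 ± 0.62 over divisions (edgeR adjusted p = 0.000354). The remaining genes called higher over divisions were Hspg2, Wdr54, Ect2l, Armh4, Ripor3, Gm20633, Lyzl4, Lnx1, Gm2420, Gm44511 and Gm5833. Their mean levels in Aldh1a1-high sums ran from 0.956 CPM in Gm44511 to 13.3 CPM in Gm5833. With 1 experiment left out at a time, Ect2l stayed called in 9 of 9 fits and Hspg2, Armh4 and Ripor3 in 7. Lnx1 stayed called in 6, Wdr54, Lyzl4 and Gm2420 in 5, Gm5833 in 3, and Gm20633 and Gm44511 in 2. A gene that was not tested in a fit counts as not called there. Of these remaining genes, Hspg2, Wdr54, Ect2l, Gm20633, Gm2420 and Gm44511 were not tested on sums. All of the remaining genes except Gm5833 had a count in under 20% of Aldh1a1-low divisions. They met the 20% filter through Aldh1a1-high divisions, which favours a call as higher. The following genes passed neither on sums nor with divisions kept apart in edgeR and are given as values. Of them, Phlda2, Plek2, Tent5c, Bcl2 and Phf11d were called by DESeq2 on the same sums. Phlda2, an imprinted gene, had 21.6, 64.98 and 97.7 CPM against 9.62, 21.4 and 53.1 CPM, a log2 difference of 1.22 ± 0.23, higher in 9 of 9. Plek2, a pleckstrin of the actin cytoskeleton, had a log2 difference of 1.47 ± 0.28, and Tent5c, a cytoplasmic poly(A) polymerase, of 1.85 ± 0.36. Clu, which encodes the secreted chaperone clusterin, had 42.2, 58.5 and 165.1 CPM against 4.06, 30.8 and 79.9 CPM and a count in 58 of 64 against 34 of 64 divisions. Its log2 difference was 1.60 ± 0.39, higher in 9 of 9 experiments. Bcl2, which blocks apoptosis, had 133.5, 190 and 495 CPM against 76.4, 130 and 240 CPM, a log2 difference of 0.63 ± 0.14. Phf11d was present in 20 of 64 against 3 of 64 divisions, and the slope over all divisions passed (edgeR adjusted p = 0.000741).

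On the low side, Rnf220 (ENSMUSG00000028677, chromosome 4, 117271463 to 117497052), which encodes a ubiquitin ligase, led by p. It had 135.4, 202.6 and 273.8 CPM in Aldh1a1-high and 252.7, 328.5 and 492 CPM in Aldh1a1-low divisions and was lower in all 9 experiments, although the ranges overlap. It fell by 0.84 ± 0.14 on the log2 scale over divisions (edgeR adjusted p = 9.87e-05). The transcript 2610307P16Rik, annotated as processed and not as protein coding, had 51.5, 190 and 439.1 CPM against 256.7, 350.997 and 702 CPM and was lower in all 9. Over divisions it fell by 1.15 ± 0.25 (edgeR adjusted p = 0.00644), and the adjusted p was 0.0531 without experiment 73.

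The other 7 low-side genes called over divisions were Satb1, Itgb5, Ccl3, Zfp831, Hif3a, Kif28 and Gm5111. Ccl3, Hif3a and Gm5111 had a count in under 20% of Aldh1a1-high divisions. They met the 20% filter through Aldh1a1-low divisions, which favours a call as lower. Satb1, a chromatin organiser of lymphoid development, had 0, 0.637 and 2.61 CPM in Aldh1a1-high and 1.86, 6.70 and 16.9 CPM in Aldh1a1-low divisions, lower in all 9 experiments. It had a count in 13 of 64 against 37 of 64 divisions and fell by 3.36 ± 0.59 over divisions (edgeR adjusted p = 0.000275), and its slope over all divisions did not pass (adjusted p = 0.266). Itgb5, which encodes integrin beta 5, had 0.67, 2.72 and 9.35 CPM against 1.49, 25.6 and 51.1 CPM and a count in 24 of 64 against 47 of 64 divisions. It fell by 2.82 ± 0.56 over divisions (edgeR adjusted p = 0.00202). The chemokine gene Ccl3 was present in 9 of 64 against 23 of 64 divisions and fell by 4.17 ± 0.74 (edgeR adjusted p = 0.000302). Zfp831 and Hif3a, the gene of a hypoxia-inducible factor, fell by 2.72 ± 0.63 and 2.47 ± 0.60 (edgeR adjusted p = 0.0177 and 0.0306). The calls of Zfp831 were lost without experiment 60, 76 or 77 and those of Hif3a without experiment 68, 69, 73, 75, 76 or 77. With 1 experiment left out at a time, Kif28 stayed called in 3 of 9 fits and Gm5111 in 7. With cell cycle scores as covariates the adjusted p of Zfp831 was 0.161, and with depth and detected genes as covariates that of Hif3a was 0.166.

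Cd74, the invariant chain of MHC class II, passed neither on sums nor with divisions kept apart in edgeR. On sums it was called by DESeq2 (adjusted p = 7.22e-05). It had 1.75, 7.07 and 35.96 CPM in Aldh1a1-high and 2.41, 22.4 and 165.7 CPM in Aldh1a1-low divisions, a log2 difference of -1.90 ± 0.41, lower in 7 of 9 experiments. Flt3, the receptor that marks multipotent and lymphoid progenitors, had 0.0766, 3.01 and 9.08 CPM against 3.16, 10.5 and 28.7 CPM, a log2 difference of -1.84 ± 0.55. Flt3 was lower in all 9 experiments and passed neither on sums nor over divisions in edgeR. Nr3c2 and Ncf4, the genes of the mineralocorticoid receptor and of an NADPH oxidase subunit, had log2 differences of -1.16 ± 0.27 and -1.33 ± 0.31. Neither passed on sums, over divisions or on the slope in edgeR, and DESeq2 called both on sums (adjusted p = 0.0053 and 0.0048). The 14 tested genes of early activation and multipotent progenitors had a median of -0.11, with 6 positive. That median was 0.09 within run 4, -0.48 within run 5 and -0.18 without experiment 69. An unadjusted p under 0.05 was reached by 2 of them (14.3%, against 5.42% of all genes tested), both lower. Satb1 was the 1 called over divisions. DESeq2 called 2 of the 14 on sums, both lower.

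Genes of HSC identity gave no edgeR call between the groups. Of 37 tested genes of HSC identity, 21 were higher and the median log2 difference was 0.07, with none called on sums, over divisions or on the slope and 1 called by DESeq2. Unadjusted p was under 0.05 for 6 of them (16.2%, against 5.42% of all genes tested). Esam, Runx1, Gfi1b and Vwf were higher, with Esam at 0.53 ± 0.14 and Runx1 at 0.39 ± 0.12, and Ifitm1 and Ifitm3 were lower, with Ifitm1 at -0.66 ± 0.20. The median was 0.25 within run 4 and -0.21 within run 5, and without experiment 69 it was -0.05 with 17 of 37 higher, so the direction of the list did not hold across cultures. Slamf1, which encodes CD150, had a count in 37.5% of cells of Aldh1a1-high and 18.0% of cells of Aldh1a1-low divisions and a log2 difference of 1.74 ± 0.91 (unadjusted p = 0.0766). Hlf, Kit, Cd34, Ly6a and Procr had log2 differences of -0.16 ± 0.25, 0.18 ± 0.10, -0.15 ± 0.24, -0.11 ± 0.35 and -0.18 ± 0.38. Procr stood at 0.67 within run 4 and -1.24 within run 5.

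The lists of erythroid, myeloid, lymphoid, macrophage and MHC class II genes had 3 to 7 tested genes each. Among 6 tested erythroid genes the median was 0.07, and the erythropoietin receptor gene Epor passed on the slope over all divisions (edgeR adjusted p = 0.00115) and not with divisions kept apart (adjusted p = 0.211). Epor had 2.63, 11.3 and 15.9 CPM in Aldh1a1-high and 0.155, 2.25 and 13.1 CPM in Aldh1a1-low divisions, and a count in 35.9% and 15.6% of cells. The 5 tested myeloid genes had a median of -0.44 with none past an unadjusted p of 0.05. Of 3 tested lymphoid genes 2 were higher, with Lck, a T cell kinase gene, at 1.06 (unadjusted p = 0.0279). The 3 tested macrophage and dendritic genes were all lower, with Flt3 and Ctss past an unadjusted p of 0.05, and Ctss, a cathepsin gene, at -1.32 ± 0.61. The 7 tested MHC class II genes had a median of -0.23, -0.73 within run 4, 0.06 within run 5 and 0.01 without experiment 69.

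No measured gene of the retinoid pathway around Aldh1a1 passed between the groups. Of 22 other genes of retinoic acid synthesis 10 were tested, with a median log2 difference of 0.07, 6 higher and none at an unadjusted p under 0.05. The close relatives Aldh1a7, Aldh1a2 and Aldh1a3 had a count in 17, 10 and 19 of all cells, and the retinoic acid hydroxylase genes Cyp26a1 and Cyp26b1 in 0 and 14. Retinoid binding, uptake and breakdown had 3 tested genes with a median of 0.18, the 12 tested receptors and partners a median of -0.09 and the 10 tested target genes a median of -0.03 (0.025 without experiment 69). In none of these lists did a gene reach an unadjusted p under 0.05 or an edgeR call on sums, over divisions or on the slope. The other 11 tested aldehyde dehydrogenases had a median of 0.29 on sums, 0.15 without experiment 69, 0.16 within run 4 and 0.10 over divisions, with 8 higher on sums, and Aldh3a2, at -0.39 ± 0.17, was the 1 gene with an unadjusted p under 0.05.

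By list medians, cell cycle genes leaned towards Aldh1a1-high divisions in run 5 and lay near 0 in run 4. The difference between runs was not tested. Of 42 tested G1/S genes 39 were higher with a median of 0.20, and of 45 tested G2/M genes 43 were higher with a median of 0.31. Within run 4 these medians were 0.05 and 0.00, and within run 5 they were 0.47 and 0.76. No gene of either list was called by edgeR or DESeq2. An unadjusted p under 0.05 was reached by 2 G2/M genes (4.44%, against 5.42% of all genes tested), among them Cdca2 at 0.62 ± 0.28. Mki67, a marker of cycling cells, had a log2 difference of 0.09 ± 0.34. The run 5 cultures differed from each other. In experiments 60, 68, 72 and 73 the difference in log2(CPM + 1) of summed counts was -2.15, 2.22, 0.73 and 0.55 for Mki67. For Cdca2 it was -0.07, 2.48, 1.68 and 1.06 in the same order. Adding cell cycle scores to the fit over divisions gave 38 calls (0.287%), with 26 of the 28 among them.

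The translation and lysosome lists lay close to the middle. All 34 tested cytosolic ribosomal protein genes were lower, with a median of -0.08 (5 of 34 were higher without experiment 69), with Rps19 at -0.22 and Rps27a at -0.16. None of them passed an adjusted edgeR fit. Of 36 lysosomal hydrolases 28 were lower with a median of -0.12 (0.02 within run 4 and -0.24 within run 5). An unadjusted p under 0.05 was reached by 6 of them (16.7%, against 5.42% of all genes tested). Naglu was higher at 0.51 ± 0.17, and Ctsh, Ctsl, Sgsh and Psap were among the lower ones. The 27 genes of the lysosome membrane and vacuolar ATPase had a median of -0.02, and Laptm4b, at -0.74 ± 0.19, was the 1 with an unadjusted p under 0.05. No list in this group held an edgeR call over divisions. DESeq2 on sums called 1 gene of the lysosome membrane and vacuolar ATPase list, which was lower.

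**Figure D4:**
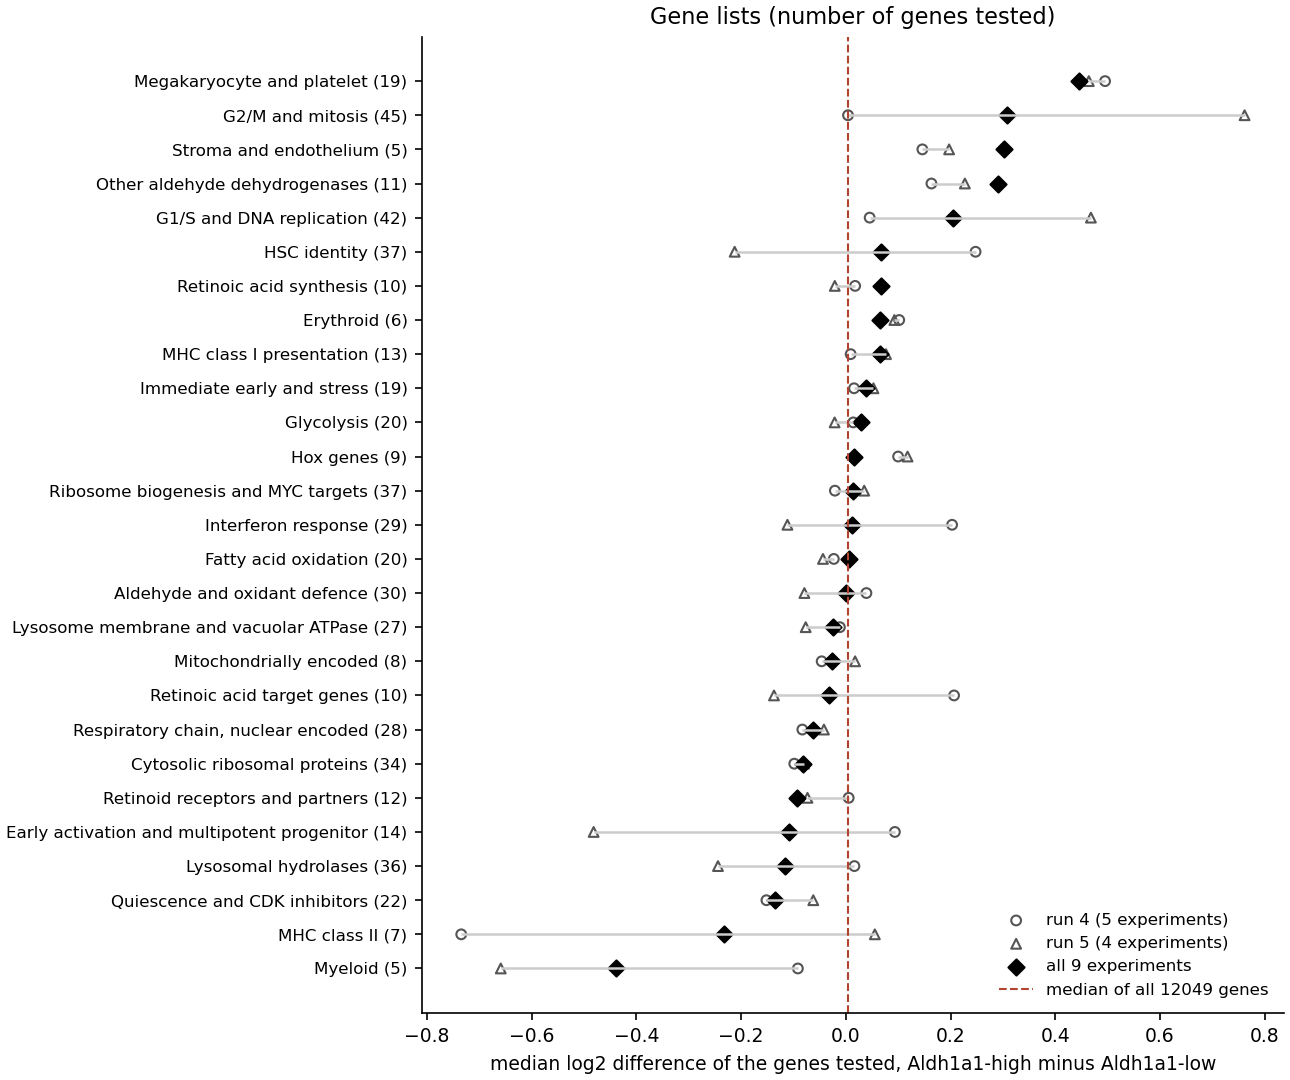
Median log2 difference (Aldh1a1-high minus Aldh1a1-low) of the tested genes of each list with at least 5 tested, with the number tested in parentheses. Diamonds are all 9 experiments, circles run 4, triangles run 5, and the dashed line is the median of all 12049 genes (0.01); megakaryocyte and platelet genes lie at 0.45, 0.50 and 0.46.

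Values of the genes that led were also read in 1 daughter with divisions ranked by the other. The 24 genes with the smallest p had been chosen on sums over both daughters of these divisions, so the cells read here took part in that choice and the counts are a description. With divisions ranked by the daughter with fewer lysosomes and genes read in the other daughter, 22 of 22 tested genes of the 24 kept their sign and 14 had an unadjusted p under 0.05. In the converse ranking 21 of 21 kept it and 15 had an unadjusted p under 0.05. Sisters share the division, the culture and the plate, so this compares cells of the same divisions. No gene passed the adjusted threshold in either ranking with edgeR. Middle divisions lay between the groups for 23 of the 24 genes and for 39.4% of all genes; the 24 were chosen for a large difference, which favours this.

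Within sequencing runs, 23 of 23 tested genes of the 24 had the same sign in run 4 and 23 of 23 in run 5, and these samples are part of the choice. Over divisions, edgeR called 18 genes within run 4 (12 of the 28 among them) and 14 within run 5, with 1 of the 28 among them. All 28 tested genes of the 28 kept their sign in run 5.

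Whether the contrast differs between daughters with more and fewer lysosomes was tested gene by gene. Of 12036 genes, 0 (0.0%) passed an interaction of Aldh1a1 group and lysosome label with edgeR, and 3.79% had an unadjusted p under 0.05; DESeq2 was not run on it. A p that misses the threshold does not show that the differences are alike.

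The 68 cells without a sequenced sister took no part in the ranking. In edgeR's slope on Aldh1a1, 0 of 6141 genes (0.0%) passed, while the unadjusted p was under 0.05 for 7.26% of them. Of those among the 653 genes above that were testable there, 52.4% had the same sign, close to the 51.5% of all genes. Of the 24 genes, 6 of 8 testable ones had the same sign, and of those called over divisions 6 of 6.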

How the data were processed

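The authors deposited raw counts per gene and cell, with no normalization, and metadata tables of another kind of value (unit: other), with experiment, movie, position, colony, plate and lysosome label given by the authors. Per the submitters' processing notes, featureCounts from Subread 1.5.0 and SAMtools were used. The sources used here name no aligner and no build. All 55450 gene IDs, version included, are those of GENCODE mouse release M21 on GRCm38, which supplied symbols and positions, and 92 spike-in rows were left out. Count columns of no listed sample, 171 in number, were not used. Total counts per cell ran from 76735 to 2444858 with a median of 846198, and counts per experiment and group from 5514343 to 18463245 in Aldh1a1-high and from 5386453 to 19827033 in Aldh1a1-low divisions. Reads carry no molecular identifiers, so counts are not independent molecules.

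Of 474 cells, 406 were joined to a sister by movie, experiment, position and colony, which gave 203 divisions, 136 in run 4 (5 experiments) and 67 in run 5 (4 experiments). Each experiment gave 3 to 12 divisions per group. Counts were summed per experiment and group and fitted with edgeR 4.0.16 in R 4.3.3 (filterByExpr, TMM, quasi-likelihood F test, experiment as block, Benjamini-Hochberg, threshold 0.05), without Aldh1a1. The labels give no replicate numbers that pair samples, and the pairing used is the experiment named in the metadata. A second fit kept divisions apart (genes with a count in at least 20% of divisions), and DESeq2 1.42.0 was an alternative. Library measures and sister differences used exact two-sided sign-flip permutation tests over 9 experiments. Tested on simulated data with 12049 genes, the fit on sums recovered 27.3%, 53.7% and 77.6% of genes changed by 1.5, 2 and 4 times, and 3.64% of its calls were false. The simulation changed 66, 67 and 67 genes by these sizes, with dispersions fitted to the real sums. The adjusted cut-off depends on how many genes change, so these shares need not hold for the real data.

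Genes were named by a rule: the 12 higher and 12 lower with the smallest p, up to 3 of each of 31 lists, and 33 genes always looked up, of which 5 were not testable. Genes called only over divisions or on the slope, such as Fgf3, Zfp831 and Hif3a, and single divisions of experiment 69, were chosen after their values were seen. The members and the lists were chosen with earlier results of these data known. Promoter windows came from RefSeq (GRCm38.p6).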

Additional observations from a re-analysis of the deposited data

Results flagged for a closer look

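In 9 of 71 sets of 9 experiments, 1 experiment lay far from the others in its difference between Aldh1a1-high and Aldh1a1-low divisions, by the gap to the nearest experiment relative to the range. Chance flags about 1 in 20 sets. Differences are of log2(CPM + 1) of the summed counts, high minus low. In 4 of these sets the experiment was 69, the culture described in the report: Hlf at 2.28 (others from -0.72 to 0.07), Apoe at 2.73 (others from -0.20 to 0.997), the lysosomal gene Psap at 0.68 (others from -0.93 to -0.14), and the mitochondrial share at -1.24 percentage points (others from -0.30 to 0.26). Experiment 73 stood apart in Flt3 at -4.10 (others from -2.14 to -0.53) and in Nr3c2 at -2.84 (others from -1.34 to -0.39), in the direction of the other experiments both times. Ncf4 was 0.75 in experiment 60, where all other experiments lay between -2.07 and -0.90. Ifitm3 was -0.97 in experiment 72 (others from -0.29 to 0.23), and Rps27a was -0.47 in experiment 77 (others from -0.19 to 0.01).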

How the results depend on the processing

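The 0 calls on sums became 59 with DESeq2, 7 without a filter on low counts, 1 with 2 groups of equal size in place of 3, 4 with divisions ranked on thinned counts and 1 within run 4. They stayed at 0 within run 5, with RLE size factors, a pseudocount of 10, either daughter alone, and no replicate block, so the experiment block changed no call. Leaving out 1 experiment gave 0 to 4, with 4 reached without experiment 68. Divisions kept apart gave 28 calls, 29 with depth and detected genes as covariates (21 shared), 38 with cell cycle scores (26 shared), and the slope gave 44. Chosen after seeing the data, fits over divisions within run 4 and run 5 gave 18 and 14 calls, and leaving out an experiment gave 21 (without 76 or 77) to 35 (without 68 or 75). Without a filter the interaction with the lysosome label gave 9 calls and the slope in cells without a sequenced sister called 1.42% of genes.

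More detected genes in Aldh1a1-high divisions no longer passed with 2 groups in place of 3 (98.9), with thinned counts (277.1), within run 4 (174.6) or within run 5 (603), where 5 and 4 experiments cannot reach an exact p of 0.05. Leaving out 1 experiment gave 288.6 to 407.3. The difference in log2 total counts was 0.079 within run 5 and from -0.034 to 0.017 without 1 experiment. Counts per spike-in count gave 0.18 with 2 groups, 0.20 on thinned counts, 0.17 within run 4 and 0.53 within run 5 against 0.33, and 0.27 to 0.40 without 1 experiment, with an adjusted p of 0.0469 without experiment 74 or 77. Aldh1a1 between sisters was 0.17 within run 5.

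Of 1517 values of 64 named genes under alternatives, 1493 kept their direction, and 55 genes kept it throughout. The exceptions are Vwf (-0.36 within run 5), Pf4 (0.040 with no replicate block, 1.06 within run 5, -0.26 to 0.16 without 1 experiment), Procr (0.041 ranked by the daughter with fewer lysosomes, 0.67 within run 4, 0.027 with depth covariates, -0.45 to 0.044 without 1 experiment), Cd34 (0.11 within run 4), Ly6a (0.31 within run 4, -0.41 to 0.11 without 1 experiment), Hlf (0.020 on thinned counts, 0.15 ranked by the daughter with fewer lysosomes, 0.24 within run 4), Ifi27 (0.017 within run 5), Mki67 (-0.10 within run 4, -0.27 with depth covariates, -0.057 with cell cycle scores, -0.16 to 0.35 without 1 experiment) and Ctsl (0.093 ranked by the daughter with fewer lysosomes). The cause was not tested. Depth limits the sparse genes: a difference in Lbhd2, Phf11d or Ccl3 rests on few divisions with a count.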

Other observations

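None of the other gene lists held an edgeR call on sums, over divisions or on the slope. The median of all genes was 0.01 on the log2 scale. Of 29 tested interferon response genes 16 were higher in Aldh1a1-high divisions with a median of 0.01, which was 0.20 within run 4 and -0.11 within run 5. MHC class I presentation had 9 of 13 higher (median 0.07), glycolysis 12 of 20 (0.03), fatty acid oxidation 11 of 20 (0.01), immediate early and stress genes 11 of 19 (0.04) and Hox genes 5 of 9 (0.01). Ribosome biogenesis and MYC targets had 19 of 37 higher (0.01), and aldehyde and oxidant defence, the list closest to the enzyme's second role, 15 of 30 (median 0.00). Nuclear respiratory chain genes had 22 of 28 lower (-0.06), mitochondrially encoded genes 5 of 8 lower (-0.03), and quiescence genes and CDK inhibitors 14 of 22 lower (-0.14). Lists of other cells had few tested genes: stroma and endothelium 5 (median 0.30), lymphoid 3 (0.00), and mast cells and basophils 2 (-0.24). Without experiment 69 the medians were 0.08 for stroma and endothelium, 0.48 for lymphoid genes, -0.47 for mast cells and basophils, -0.05 for quiescence genes, 0.05 for mitochondrially encoded genes and -0.10 for Hox genes.

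Sisters resembled each other in some of the genes described above. Of these, Clu, Vwf and Cd74 were not called by edgeR on sums, over divisions or on the slope. Spearman's correlation of sisters over all divisions was 0.620 for Clu, 0.603 for Vwf, 0.557 for Cd74, 0.462 for Rnf220, 0.429 for Exoc3l4, 0.385 for Itga2b, 0.285 for Itgb3 and 0.253 for Satb1, against 0.706 for Aldh1a1. Across all cells, Aldh1a1 had a Spearman correlation of 0.328 with Clu, 0.311 with Itgb3, 0.244 with Itga2b and -0.282 with Rnf220, as descriptions over cells that share culture and depth.

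Promoter windows were matched for 10 of the 12 higher and 9 of the 12 lower genes with the smallest p. GATAA was in 2 of the 10 and 1 of the 9, and AGGAAG in 3 of the 10 and 3 of the 9, against 25.5% and 32.3% of 27025 genes. Among 11 matched genes of the megakaryocyte and platelet list, 3 held GATAA and 6 held AGGAAG.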
